A study of Mus musculus with 2 samples.

Results

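At E9.5 the mandibular arch held 311 cells in which stratifin (Sfn) transcripts coincided with the simple keratins Krt8 and Krt18, and these Sfn-positive cells are described here. They were chosen by raw molecule counts: at least 2 Sfn UMIs (unique molecular identifiers, 1 per captured transcript), at least 3 Krt8 plus Krt18 UMIs, and no UMI of Foxa1, Foxa2 or Pax1, which mark pharyngeal endoderm. They made up 2.44% of the 12744 cells of the E9.5 library that had 200 to 5500 genes and at most 10% mitochondrial UMIs, out of 24099 such cells in both libraries of the series. The E9.5 library came from the mandibular arches, epithelium and mesenchyme together, of 8 embryos of a single litter, which were pooled and dissociated without sorting. The E12.0 library, used for comparison, came from mandibular epithelium of 6 pooled embryos of a single litter, sorted for GFP. Both litters were K14Cre;R26mT/mG mice, in which a keratin 14 promoter drives Cre and recombined cells turn from membrane Tomato to membrane GFP. Per the study's methods, epithelial cells gain this label only after E9.5, and no sort was applied at E9.5. With 1 library a stage there were no biological replicates, so no difference below carries a p-value. Levels are CPM, that is UMIs per 1000000 UMIs summed over a group of cells, with exact 95% Poisson intervals that cover counting error only.

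Periderm is the flat, transient cell sheet that covers the embryonic skin and the lining of the mouth before stratification is complete, and that keeps apposed epithelia from fusing. It arises from a single-layered ectoderm that carries Krt8 and Krt18, while the cells beneath turn on the stratified programme led by the transcription factor Trp63 and the basal keratins. Sfn, an adaptor protein of stratifying epithelia and a p53 target, is among its known markers, with the transcription factor Grhl3 acting in its differentiation.

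Sfn lies on chromosome 4 (133600556 to 133602168, minus strand, GRCm38). It was the gene that selected the cells, so the 250 bases that precede its start are shown, at chr4:133602169-133602418 on the minus strand of GRCm38.p6 (RefSeq start sites). No annotated exon overlapped the window. Capitals mark the single match to AACNGGTT, a motif form of the Grainyhead-like factors to which Grhl3 belongs, which sat 184 bases before the start as AACTGGTT.
Sfn: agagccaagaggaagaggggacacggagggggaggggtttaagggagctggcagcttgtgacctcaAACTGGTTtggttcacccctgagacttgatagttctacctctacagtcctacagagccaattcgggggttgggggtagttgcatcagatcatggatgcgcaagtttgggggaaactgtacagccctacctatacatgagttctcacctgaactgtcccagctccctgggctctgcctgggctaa
Both strands were searched, and 1.79% of 32851 mouse windows of this length held AACNGGTT. A match of letters does not show binding.

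Of the 311 cells, 220 held exactly 2 Sfn UMIs, 69 held 3, 17 held 4, 4 held 5 and 1 held 7. Just inside the keratin threshold were 2 cells with 3 Krt8 plus Krt18 UMIs and 5 with 4, and just outside it were 3 Sfn-positive cells with 1 or 2. A further 31 cells met both thresholds but held a Foxa1 or Foxa2 UMI, 6 held a Pax1 UMI only, and 72 failed only by having over 5500 genes. The cells were deep enough to be read singly, with a median of 13612 UMIs and 4000 genes. Their median mitochondrial share was 1.78%, and 3.86% of them were called doublets by Scrublet, against 4.76% of the Epcam-positive and 5.57% of the keratin-positive reference cells described below, and 2.60% of all kept cells.

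Sfn detection followed the epithelium. In the 4718 kept cells without any Epcam, Krt8 or Krt18 UMI (median 12561 UMIs), 1.46% held a Sfn UMI (exact binomial interval 1.14 to 1.85%) and 0.0212% held at least 2. In the 3894 cells with at least 3 Krt8 plus Krt18 UMIs and no Foxa or Pax1 UMI (median 12091 UMIs), the shares were 26.4% and 7.99%. A single Sfn UMI therefore had a measurable background in cells that should lack the gene, while 2 UMIs had almost none. Epcam, a general epithelial adhesion molecule that the rule did not use, was present in 97.1% of the Sfn-positive cells with a median of 6 UMIs.

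The periderm label was set against 11 marker genes other than those of the rule, and the data went against it in part. Grhl3 was found as 1 UMI in 1 cell, which is 0.227 CPM (0.00575 to 1.26). Krt6a and the desmosomal plakophilin Pkp1 had no UMI among 4406075, which allows up to 0.837 CPM each. Krt17 reached 3.86 CPM and was seen in 5.47% of cells. Krt19 (110 CPM), Mt2 (79.0 CPM) and periplakin (Ppl, 16.6 CPM) were present and above the other epithelial cells, as described below. Cldn4 (13.2 CPM), Acta2, Tagln and Nebl were at or near the level of those cells. Of the 11 markers 3 were higher, where 2.18% of all detected genes were higher against the keratin-positive reference described below. Grhl3, Krt6a and Pkp1 were at or near 0, in the other epithelial cells as well. Outside these 11, Trp63 and the basal keratin Krt14, genes of the programme of the cells beneath the periderm, were also higher, as given below. The label was not settled by these genes, and the group is called by its rule, Sfn-positive cells. Mt2 had itself been put forward as a marker of these cells from earlier results on this library.

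Differences were called by size, as a CPM ratio of at least 1.3 after adding 5 CPM to both sides, where 15% or more of the cells in the higher group held a UMI. The reference was at first every kept cell with an Epcam UMI, no Sfn UMI and no Foxa1, Foxa2 or Pax1 UMI (3154 cells, median 13471 UMIs). Against this Epcam-positive reference 568 of 7710 detected genes were higher in the Sfn-positive cells (7.37%) and 232 were lower (3.01%), beside a median log2 fold of 0.03 over all of them. The reference was mixed. Exactly 1 Epcam UMI was held by 34.3% of its cells, and 29.9% had fewer than 3 Krt8 plus Krt18 UMIs. The 15 genes that led the lower side included embryonic haemoglobins (Hbb-y, Hba-x, Hbb-bh1), mesenchymal genes (Twist1, Prrx1, Snai1, Cdh11) and the endothelial regulators Fli1 and Ets1. Twist1, a mesenchymal transcription factor, was at 48.6 CPM in the Sfn-positive cells, 275 CPM in the reference and 605 CPM in cells without epithelial counts.

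A keratin-positive reference was therefore taken as well, the 2210 reference cells with at least 3 Krt8 plus Krt18 UMIs (median 12241 UMIs). Against it 166 of 7621 genes were higher (2.18%) and 85 were lower (1.12%), with a median log2 fold of 0.01. Of these 166 genes, 153 had also been called higher against the Epcam-positive reference (92.2% of the 166 and 26.9% of the 568), but only 36 of the 85 lower genes had (42.4% of the 85 and 15.5% of the 232). Both comparisons use the same Sfn-positive cells and overlapping references, so they are not separate evidence. All 25 genes that led the higher side against the Epcam-positive reference were also called against the keratin-positive one, and values below are given against the latter.

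**Figure D1:**
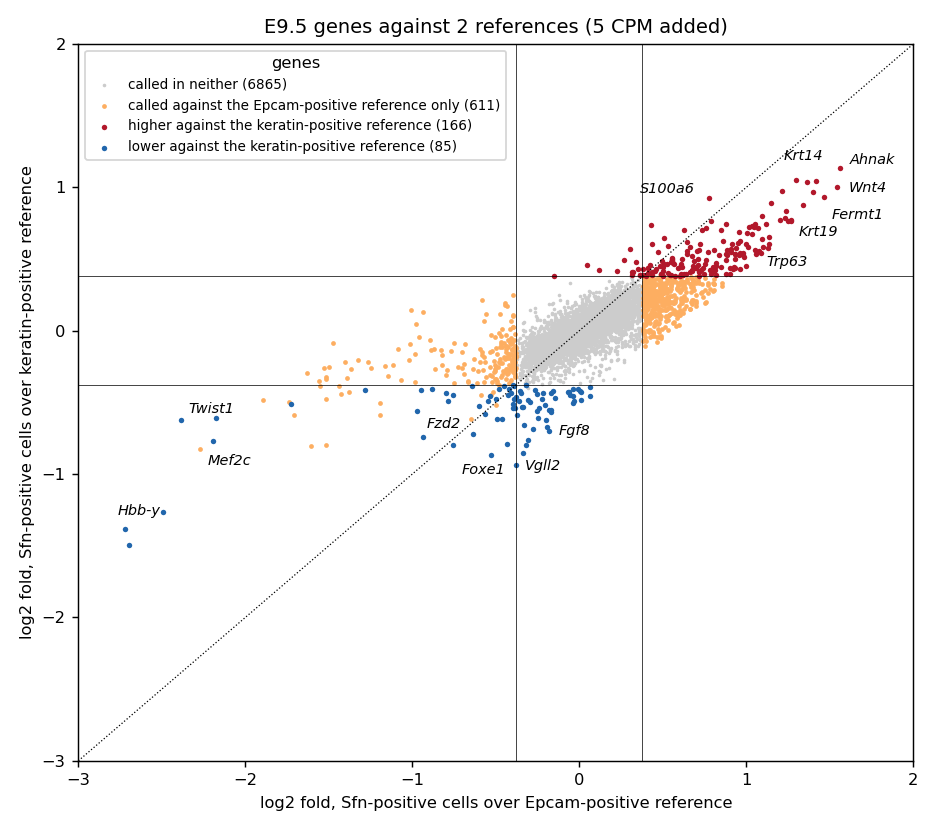
Each point is 1 gene, by its log2 fold (5 CPM added) of Sfn-positive cells over the Epcam-positive reference (x axis) and over the keratin-positive reference (y axis), with thin lines at a ratio of 1.3 and a dotted line of equality. Wnt4, Ahnak, Krt14 and Fermt1 lie far to the upper right, Vgll2 and Fgf8 are lower on the y axis than on the x axis, and the haemoglobins and Twist1 lie farther left than down.

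Wnt4, a secreted Wnt of early ectoderm (chromosome 4, 137277489 to 137299726), was at 252 CPM (238 to 268) in the Sfn-positive cells and 123 CPM (119 to 127) in the keratin-positive reference, a log2 fold of 1.00. A UMI of it was found in 88.7% of the Sfn-positive cells and 60.1% of the reference, with up to 21 UMIs and a median of 3 in a Sfn-positive cell. After every cell was thinned to 5000 UMIs the shares were 64.6% and 40.8%, against 2.73% in cells without epithelial counts. Wnt6 was at 124 CPM against 83.9 CPM, and the less abundant Wnt3 at 14.5 CPM against 6.76 CPM. Pdgfa, a growth factor made by epithelium for the mesenchyme beneath, was the most abundant of them, at 722 CPM (697 to 747) against 481 CPM (473 to 489), with a UMI in 98.1% of the Sfn-positive cells. Ntf5, a neurotrophin, was at 27.7 CPM against 13.3 CPM. These genes were grouped after their values were seen, and other ligands (Fgf8, Cxcl12, Sema3e and Jag1) were called lower. The intervals of the Sfn-positive cells and the reference did not overlap for Wnt4, Wnt6, Wnt3, Pdgfa or Ntf5. Wnt4, Wnt3 and Ntf5 were named because the interval of their ratio to this reference cleared 1.3. Wnt6 and Pdgfa were named by the same rule against the Epcam-positive reference, which includes the keratin-positive cells. The lack of overlap was thus largely set by the choice of genes and is no further evidence.

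Lists of related genes were set against the background shares of the keratin-positive comparison, 2.18% of genes higher and 1.12% lower, counting how many of each list were detected in at least 15% of either group. With so few genes called, a count of 0 in a list of this size is near the background and says nothing about its genes. Of 11 listed keratins other than Krt8 and Krt18, 3 were detected widely enough to be compared and all 3 were higher. Krt14 is the basal keratin whose promoter drives the Cre of these mice (chromosome 11, 100203162 to 100207548). Its level was 31.8 CPM (26.7 to 37.5) and that of the reference 12.9 CPM (11.6 to 14.3), or 1.04 as a log2 fold, and it was found in 33.4% of Sfn-positive and 13.8% of reference cells. Krt19, a simple-type keratin, was at 110 CPM (100 to 120) against 62.5 CPM (59.6 to 65.5). Krt7, another simple-type keratin, was at 87.2 CPM (78.7 to 96.3) against 56.5 CPM (53.8 to 59.4). Krt4, Krt13, Krt6a and Krt23 had no UMI, and Krt5, the partner of Krt14 in basal cells, was at 0.454 CPM. Krt15 was at 7.72 CPM against 4.27 CPM and Krt17 at 3.86 CPM against 1.35 CPM, both under the detection limit of 15% of cells.

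Of 12 desmosome and envelope genes 6 were detected, 3 were higher and none was lower, against background shares of 2.18% and 1.12%. Desmoplakin (Dsp), which anchors keratin to the desmosome, was at 142 CPM (131 to 153) against 102 CPM (98.5 to 106). Perp, a desmosomal tetraspan protein regulated by Trp63, was at 44.0 CPM (38.1 to 50.7) against 20.1 CPM (18.5 to 21.9). Ppl, a cornified-envelope plakin, was at 16.6 CPM (13.0 to 20.8) against 10.8 CPM (9.63 to 12.1). Of 8 genes of adherens junctions and epithelial adhesion 7 were detected, 2 were higher (background 2.18%) and none was lower, P-cadherin (Cdh3) among them at 43.1 CPM against 30.5 CPM. Of 15 tight-junction genes 9 were detected and of 14 genes of the apical membrane and epithelial proteases 11 were, and none was called in either direction, which is near the background shares of 2.18% and 1.12%. Against the Epcam-positive reference 5 of 9 detected tight-junction and 8 of 11 detected apical genes had been called higher (background 7.37%). Those calls were lost once the reference cells also carried keratins.

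Fermt1, the kindlin that activates integrins in epithelium (chromosome 2, 132904389 to 132945906), was at 171 CPM (159 to 183) against 87.1 CPM (83.7 to 90.7), which is 0.93 on the log2 scale, and was seen in 82.3% of Sfn-positive cells. Of 19 listed basement membrane and hemidesmosome genes 12 were detected, 2 were higher (background 2.18%) and none was lower (background 1.12%). Those called were the laminin receptors Bcam (196 against 127 CPM) and Dag1 (178 against 119 CPM). The hemidesmosomal collagen Col17a1 had no UMI and the integrin Itgb4 was at 1.13 CPM. Ahnak, a very large membrane scaffold protein (chromosome 19, 8989284 to 9076914), had the largest log2 fold of the 25 leading higher genes. It was 1.14, at 155 CPM (144 to 167) against 67.7 CPM (64.7 to 70.9). Ahnak was unevenly spread, since 1 cell held 70 of its 683 UMIs, but 63.0% of Sfn-positive cells and 31.3% of the reference held at least 1. Its rank without that cell was not tested.

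Other genes at the head of the list were of varied kinds. Ifitm3, an interferon-inducible membrane protein, was at 203 CPM against 108 CPM. Cd59a, an inhibitor of complement, was at 82.8 CPM against 45.8 CPM, and Car4, a carbonic anhydrase, at 74.2 CPM against 45.8 CPM. The small heat shock protein Hspb8 was at 30.4 CPM against 12.3 CPM. Metallothioneins, which bind zinc and copper, were both higher, Mt1 at 206 CPM (193 to 220) against 123 CPM (119 to 127) and Mt2 at 79.0 CPM (70.9 to 87.7) against 44.1 CPM (41.7 to 46.7). No other gene of their list of 9, of which 6 were detected, was called (background 2.18%). Of 12 immediate-early and heat shock genes 6 were detected widely enough and none was called, which is near the background share of 2.18%. S100a6 (28.6 against 12.7 CPM) and S100a11 (105 against 72.9 CPM), calcium-binding proteins, were the only genes called of 16 annexins, S100 proteins and galectins, of which 7 were detected. Of 23 contractile and actin-binding genes 16 were detected and 2 were higher (background 2.18%), Pdlim1 (118 against 65.8 CPM) and Limk2 (22.5 against 15.5 CPM), regulators of actin filaments.

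Of 17 listed periderm regulators 9 were detected, 1 was higher (background 2.18%) and none was lower. This gene, Trp63, was given above as leading the programme of the cells beneath the periderm, so its call does not bear out a periderm name. It was at 71.5 CPM (63.8 to 79.8) against 47.1 CPM (44.5 to 49.7). Grhl2, which maintains epithelial junctions, was level at 46.8 CPM (40.6 to 53.6) against 45.9 CPM (43.5 to 48.5), and Klf4 stood at 13.6 CPM against 15.3 CPM. Among the leading higher genes outside that list, Sp6, a zinc finger factor of ectodermal appendages, was in 18.3% of Sfn-positive and 6.79% of reference cells, and Zfp503 at 71.0 CPM against 39.5 CPM.

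**Figure D2:**
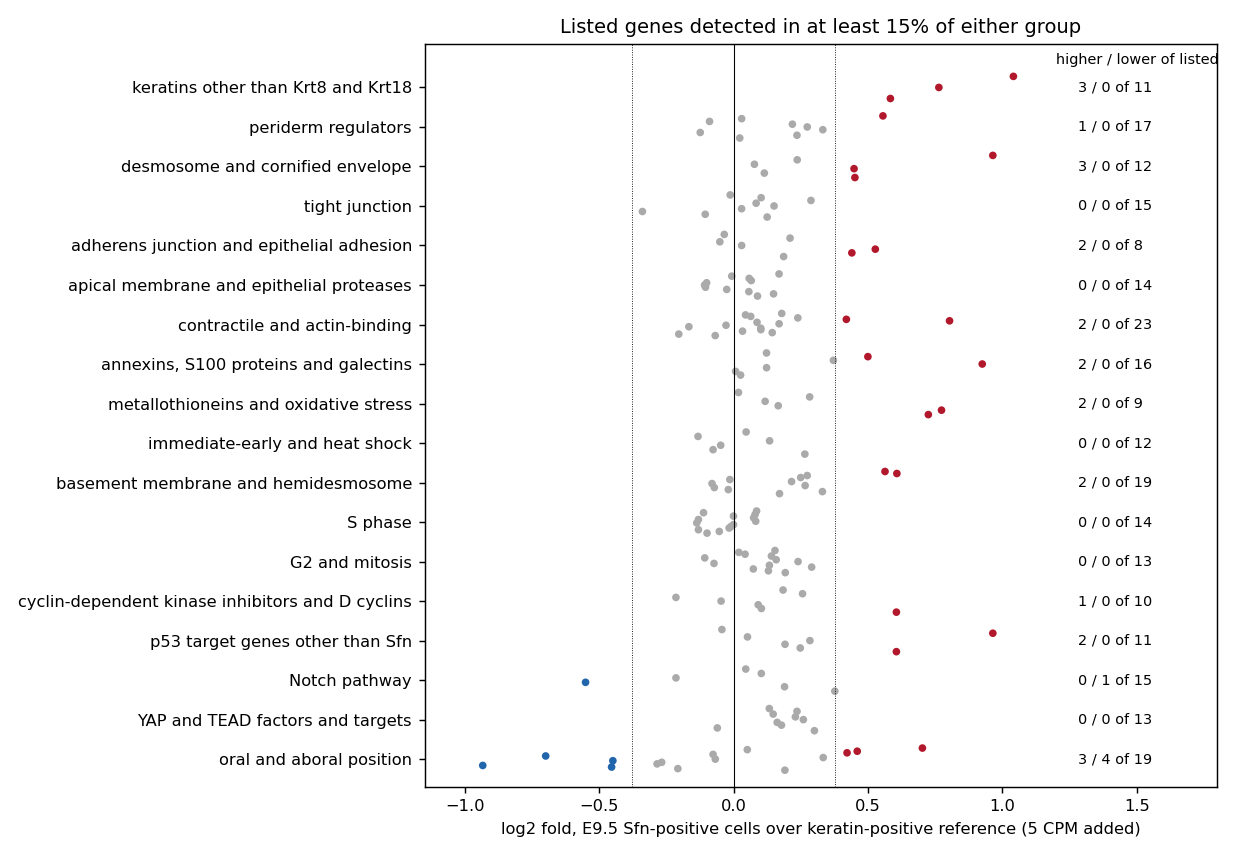
Each point is 1 listed gene detected in at least 15% of either group, by its log2 fold (5 CPM added) over the keratin-positive reference on the x axis, grouped by list, with red for higher, blue for lower and dotted lines at a ratio of 1.3. Keratins lie wholly to the right, tight-junction, apical and cell cycle genes lie between the dotted lines, and the oral and aboral list has points on both sides.

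None of 14 S phase genes and none of 13 G2 and mitosis genes was called in either direction, beside background shares of 2.18% higher and 1.12% lower. The G2 and mitosis genes summed to 3209 CPM against 2897 CPM, with a median log2 fold of 0.13, and the S phase genes to 2330 CPM against 2368 CPM, with a median of -0.01. Mki67, the proliferation marker, was at 370 CPM (352 to 389) against 323 CPM (317 to 330). The cyclin-dependent kinase inhibitor Cdkn1a was at 49.3 CPM (42.9 to 56.3) against 30.7 CPM (28.6 to 32.8), the only gene called of 10 inhibitors and D cyclins, of which 7 were detected. Cdkn1a and Perp were also the 2 genes called of 11 p53 targets other than Sfn, of which 7 were detected (background 2.18%). Of 13 genes in the YAP and TEAD list 9 were detected and none was called. Of 15 Notch genes 6 were detected, none was higher and 1 was lower (background 1.12%), the ligand Jag1 at 30.2 CPM against 46.6 CPM. Counts of 0 or 1 in lists of this size are near the background.

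Genes of position in the arch ectoderm lay on both sides: of 19 listed 15 were detected, 3 were higher (background 2.18%) and 4 lower (background 1.12%). Vgll2, a TEAD cofactor (chromosome 10, 52022502 to 52028471), was at 118 CPM (108 to 128) against 230 CPM (224 to 235), which is -0.93 on the log2 scale. It was seen in 33.8% of Sfn-positive and 48.9% of reference cells, with up to 20 UMIs in a cell and a median of 0. Fgf8, the growth factor of oral ectoderm, was at 79.7 CPM (71.5 to 88.4) against 132 CPM (128 to 137). Sox2 (73.3 against 102 CPM) and Irx5 (39.3 against 55.4 CPM) were lower as well, while Msx1 (52.2 against 37.7 CPM), Msx2 (28.1 against 19.1 CPM) and Dlx3 (14.1 against 6.72 CPM), homeobox genes of the arch, were higher. Pitx1, a homeobox gene of oral ectoderm, was not called, at 210 CPM against 183 CPM.

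Apart from Vgll2 and Fgf8, the 15 leading lower genes against the keratin-positive reference were of varied kinds. They were led by the embryonic haemoglobins Hba-x, Hbb-y and Hbb-bh1, and UMIs of other tissues, given below, moved with this comparison. The Wnt receptor Fzd2 was at 105 CPM (95.3 to 115) against 175 CPM (170 to 180). Has2, which makes hyaluronan, was at 50.6 CPM against 91.6 CPM, and the chemokine Cxcl12 at 50.4 CPM against 89.1 CPM. Foxe1, a forkhead factor of the oral and thyroid primordia, was at 23.4 CPM against 46.2 CPM. The FGF-responsive factor Etv5 was at 10.2 CPM against 21.4 CPM and the retinoic acid hydroxylase Cyp26a1 at 8.40 CPM against 19.4 CPM. The intervals of the Sfn-positive cells and the reference did not overlap for Fzd2, Has2, Cxcl12, Foxe1, Etv5 or Cyp26a1. Genes were named here only if the interval of their ratio to this reference cleared 1.3. The lack of overlap was therefore set by the choice of genes and is no further evidence.

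Levels on both sides of the Sfn threshold are given as a description only, since Sfn chose the cells and the genes were picked for differing between cells with 0 and at least 2 Sfn UMIs. Among keratin-positive cells without Foxa or Pax1 UMIs, 2866 held no Sfn UMI, 717 held 1, 220 held 2, 86 held 3 or 4 and 5 held more, at median depths of 11704, 12705, 13350, 14065 and 11866 UMIs. Wnt4 went from 106 CPM to 186, 237 and 288 CPM over the first 4 of these classes. Krt19 went from 56.0 CPM to 80.6, 104 and 119 CPM. Krt14 went from 11.2 CPM to 19.6 and 33.7 CPM and was at 27.0 CPM (18.7 to 37.8) with 3 or 4 Sfn UMIs. Vgll2 went the other way, from 189 CPM through 183 and 129 CPM to 94.6 CPM, and Fzd2 from 169 CPM through 141 and 110 CPM to 90.7 CPM. Of the 25 leading higher genes against the keratin-positive reference, 23 were in increasing order over 0, 1 and 2 UMIs and 20 through 3 or 4, the exceptions over 0, 1 and 2 being Mt2 (39.4, 69.0 and 68.1 CPM) and Pla2g4a. Of the 15 leading lower genes against the same reference, 12 were in decreasing order over 0, 1 and 2 UMIs and 9 through 3 or 4, the exceptions over 0, 1 and 2 being Hba-x, Has2 and Sema3e. The choice of genes fixed the difference between cells with 0 and at least 2 Sfn UMIs, so these counts support nothing further. Median depth rose over the first 4 Sfn classes, and so did the share of cells with an Epcam UMI (77.1, 92.9, 96.4 and 98.8%). The class without Sfn UMIs was therefore not the same as the keratin-positive reference. The part of depth and of the Epcam share in the order was not tested.

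**Figure D3:**
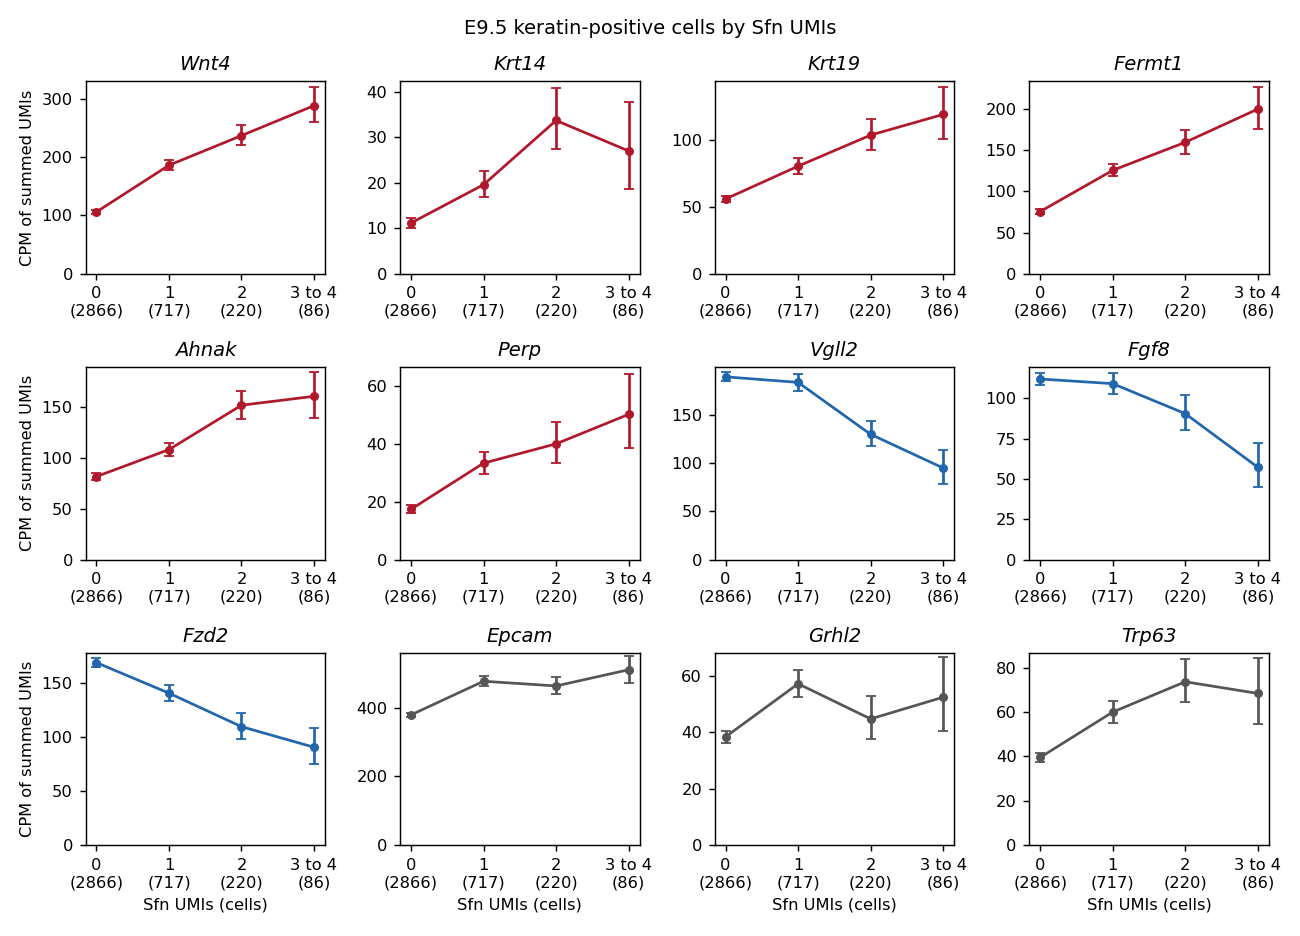
CPM of 12 genes (y axes from 0, bars are exact 95% Poisson intervals) in E9.5 keratin-positive cells with 0, 1, 2 and 3 to 4 Sfn UMIs (x axis, cells in brackets). Wnt4 and Krt19 climb over all 4 classes, Vgll2 and Fzd2 descend, and Trp63 climbs from 39.6 to 73.7 CPM over the first 3 classes.

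The Sfn-positive cells were not uniform when divided by Vgll2, a division chosen after its values were seen. A Vgll2 UMI was present in 105 of them, which were deeper (median 16854 UMIs) than the 206 without (median 11891 UMIs). To set depth aside each cell was thinned to 5000 UMIs, which left 302 of the 311 and divided them into 67 with a Vgll2 UMI and 235 without. In those without, Ahnak was at 197 CPM (172 to 224) against 44.8 CPM (25.1 to 73.9) in those with Vgll2. Car4 was at 108 CPM (90.1 to 129) against 29.9 CPM (14.3 to 54.9), Krt7 at 103 CPM (85.4 to 123) against 35.8 CPM (18.5 to 62.6), and Mt2 at 102 CPM (84.7 to 122) against 23.9 CPM (10.3 to 47.1). In those with Vgll2, Fgf8 was at 167 CPM (126 to 217) against 34.9 CPM (upper limit 47.3), and Has2 at 95.5 CPM (65.3 to 135) against 32.3 CPM (22.9 to 44.4). Over all UMIs the gaps were narrower for Ahnak (198 CPM without and 92.2 CPM with Vgll2), Krt7 (108 and 57.0 CPM) and Mt2 (105 and 41.3 CPM). They were not narrower for Car4 (107 and 26.3 CPM), Fgf8 (27.5 and 156 CPM) or Has2 (27.9 and 83.8 CPM). The thinned intervals of Pdgfa (719 CPM without and 755 CPM with), Krt19 (118 and 104 CPM) and Trp63 (72.3 and 53.7 CPM) overlapped. Over all UMIs they did not for Pdgfa, at 686 CPM (655 to 719) without and 773 CPM (733 to 815) with Vgll2, nor for Krt19, at 121 CPM (108.2 to 135) without and 92.7 CPM (79.2 to 108.0) with. Vgll2 and Fgf8 were found together in 22.5% of Sfn-positive cells, above the 10.3% given by the product of their shares, whereas Vgll2 and Krt14 were together in 11.3%, with a product of 11.3%. These shares are in raw cells and share depth, so they describe the cells only.

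Clustering of the Sfn-positive and Epcam-positive reference cells without the rule genes and Epcam placed the Sfn-positive cells in no cluster of their own. At a resolution of 0.2, 279 of 311 fell in a cluster of 2021 cells led by Vgll2, Fgf8 and Wnt6, in which they were 13.8% of cells. At a resolution of 0.4 that cluster divided, and 179 fell in a cluster of 693 cells led by Ahnak, Cd59a, Car4 and Wnt4, in which they were 25.8%. A further 72 fell among 888 cells led by Vgll2, Fgf8 and Cldn10, and 29 among 448 led by Foxi2 and Wnt6. A shallow cluster of 273 cells (median 4014 UMIs and 1 Epcam UMI) held 13 Sfn-positive and 260 reference cells. It was led by Ifitm3 and Dok5, with Mt2, Krt19, S100a11 and Pdlim1 also among its leading genes. Ifitm3, Mt2, Krt19, S100a11 and Pdlim1, given above as higher in the Sfn-positive cells, thus also led a cluster made mostly of cells without Sfn. Clusters led by mesenchymal, endothelial or haemoglobin genes held 3 Sfn-positive cells in all at that resolution, and the cluster led by Tbx1, Lhx2 and Tcf21, where 50.2% of cells were called doublets, held 13. At a resolution of 0.2 the cluster led by Twist1, Nr2f1 and Prrx1 held 9 and the one led by Cldn5 and Emcn held 1. A cluster led by Hhex held 2 at both resolutions.

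Markers of other cells were low in the Sfn-positive cells. The summed level of 8 mesenchymal markers was 157 CPM, below 641 CPM in the Epcam-positive reference, 225 CPM in the keratin-positive one and 1330 CPM in cells without epithelial counts. Its most abundant gene was Prrx2, at 49.3 CPM, and none of the 8 was at 0. The 6 red blood cell markers summed to 143 CPM against 985, 404 and 3579 CPM, led by Hbb-y at 64.9 CPM, with Alas2 at 0. The difference against the keratin-positive reference therefore moved with fewer UMIs of other tissues, and their part in it was not tested. The 6 endothelial markers summed to 10.4 CPM, and the 5 white blood cell markers to 1.13 CPM with Ptprc, C1qb and Tyrobp at 0. The 4 neural crest and 5 mesoderm core markers summed to 28.6 and 11.8 CPM, led by Erbb3 and Tbx1, with Foxd3 and Myf5 at 0.

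Epithelia of other origin left little trace. Of 8 visceral endoderm markers 6 had no UMI, Afp and Ttr among them, and the sum was 2.72 CPM. Of 7 mesothelial markers 5 had none, and the sum of 11.3 CPM was nearly all Lrrn4. The 6 trophoblast markers summed to 15.9 CPM, led by Gata2, with Tpbpa and Prl3d1 at 0. The 8 pharyngeal endoderm markers other than the rule genes summed to 28.1 CPM against 68.5 CPM in the keratin-positive reference, and Foxe1 made up 23.4 CPM of it. The cardiac list stood at 44.9 CPM against 66.9 CPM, led by Nkx2-5, and the neuronal and otic lists at 5.22 and 3.40 CPM, led by Stmn2 and Pax2.

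**Figure D4:**
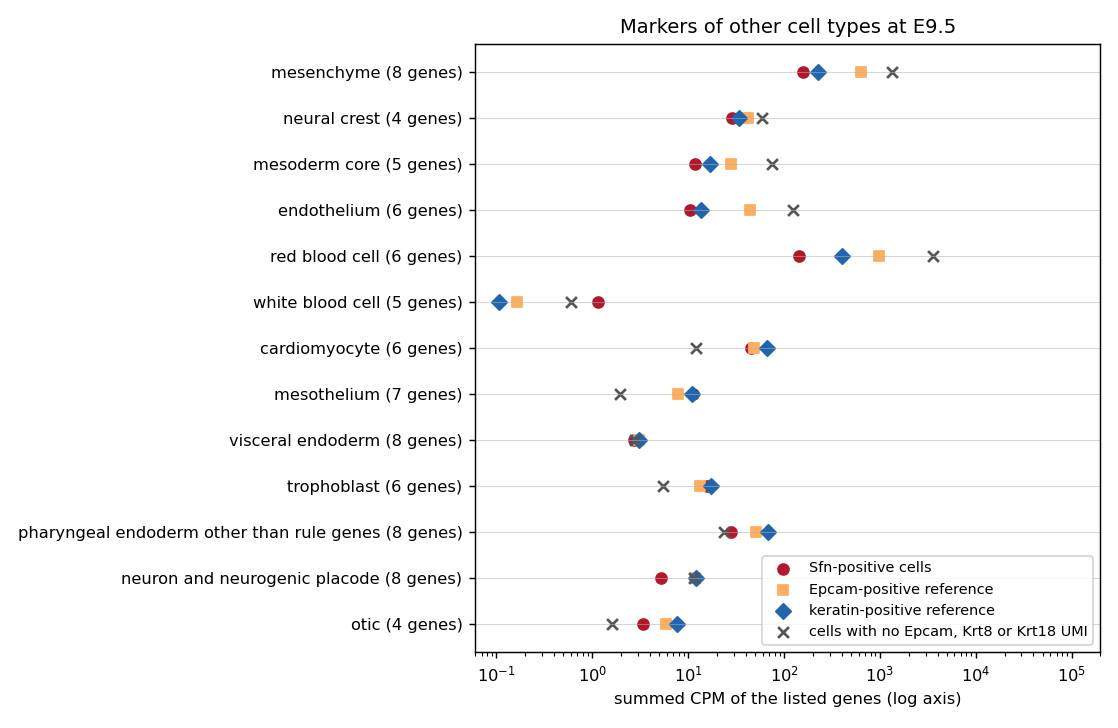
Summed CPM of marker lists of 13 other cell types (log x axis) in the Sfn-positive cells, both E9.5 references and cells with no Epcam, Krt8 or Krt18 UMI. The Sfn-positive cells (157 CPM of mesenchymal and 143 CPM of red blood cell markers) lie left of both references in those rows and right of both for white blood cell and mesothelial markers, at 1.13 and 11.3 CPM.

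The smooth muscle genes Acta2 and Tagln, listed as periderm markers, rested on single cells. Acta2 was at 19.1 CPM (15.2 to 23.6) against 18.6 CPM in the keratin-positive reference, and 65.5% of its UMIs came from 1 cell, the same that held 7 Sfn UMIs. That cell had 55 Acta2, 46 Tagln, 8 Actc1 and 7 Cnn1 UMIs together with 22 Krt8, 25 Krt18, 8 Epcam and 3 Foxe1 UMIs. Actc1 is a gene of the cardiac list. At least 5 UMIs of both genes were held by 2 of the 311 cells and by 11 of the 2210 keratin-positive reference cells, where 1 cell reached 74 Acta2 UMIs. Among the 37 cells that had at least 2 Sfn UMIs but a Foxa1, Foxa2 or Pax1 UMI, 3 did, and Acta2 was at 248 CPM. Without those 2 cells the counts of higher and lower genes against the keratin-positive reference were 163 and 86.

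The same rule applied to the E12.0 library gave 397 cells, 3.50% of 11355, and 280 keratin-positive reference cells. The rule selects less sharply there, because at E12.0 even cells without Epcam, Krt8 or Krt18 UMIs held at least 2 Sfn UMIs in 21.7% of cases (median 5450 UMIs), against 41.8% of keratin-positive cells (median 7262 UMIs). Doublets were called in 18.1% of the selected E12.0 cells and 9.29% of their keratin-positive reference, so differences there moved with the doublet share, and its part was not tested. Against the Epcam-positive E12.0 reference 4.83% of 6957 genes were higher and 1.74% lower, and against the keratin-positive one 4.52% of 7076 were higher and 2.6% lower.

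At E9.5 Anxa1 was at 0.681 CPM, Grhl3 at 0.227 CPM and Pkp1 and Krt6a at 0, and these 4 genes were picked after their values were seen. Within the E12.0 library Grhl3 was at 30.7 CPM in the selected cells against 5.99 CPM in the keratin-positive reference, Pkp1 at 31.5 CPM against 5.07 CPM, Krt6a at 25.8 CPM against 2.30 CPM and Anxa1, an annexin, at 108 CPM against 33.6 CPM. A shared difference that was larger there was that of Ppl, with a log2 fold of 0.45 at E9.5 and of 1.82 in the older library. Wnt4, Ahnak and Krt14 had the larger log2 fold at E9.5 (1.00, 1.14 and 1.04) than at E12.0 (0.39, 0.53 and 0.57). Trp63 was called at E9.5 (0.56) but not at E12.0 (0.20). Of the genes called higher against keratin-positive references, 30 were common to both stages, 18.1% of the 166 at E9.5 and 9.38% of the 320 at E12.0. Stage, litter, tissue, sorting, matrix software (3.1.0 at E12.0 and 6.1.2 at E9.5) and gene annotation (27998 and 31053 genes) changed together between the libraries and cannot be told apart, and no difference between stages was tested.

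**Figure D5:**
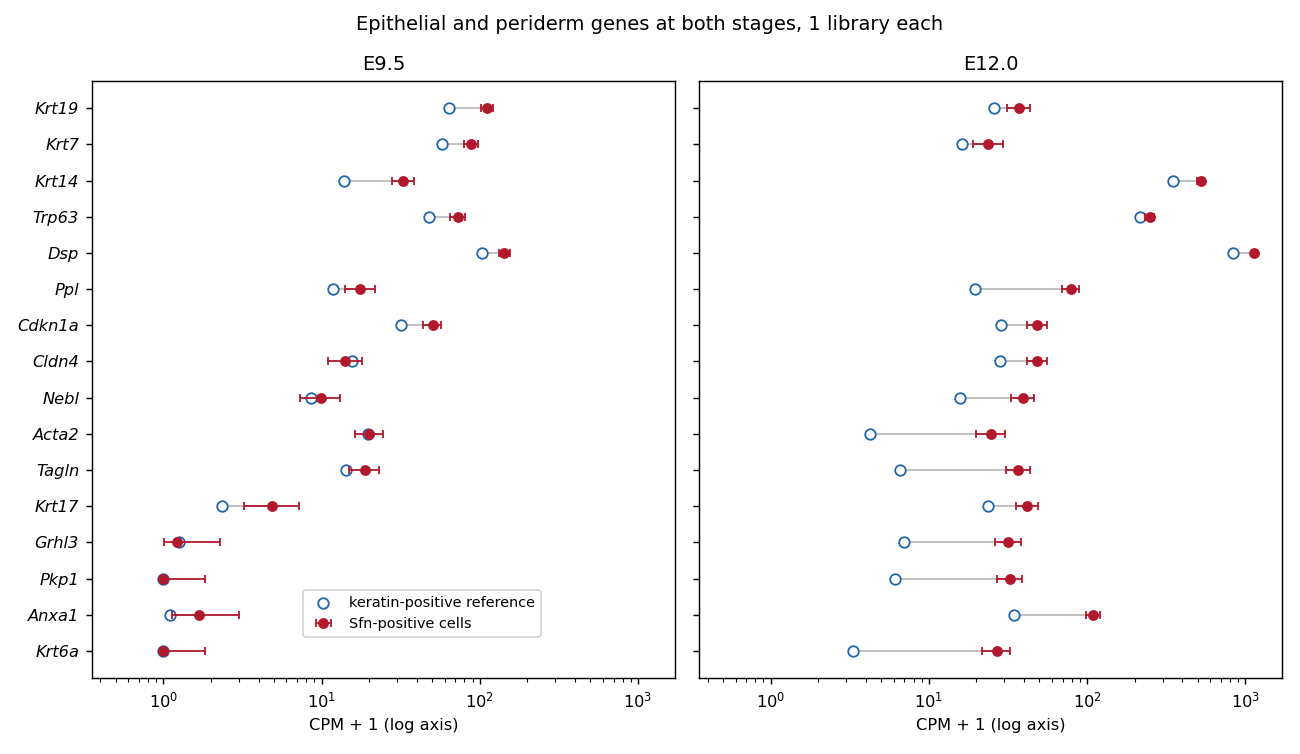
CPM plus 1 (log x axes) of 16 epithelial and periderm genes in Sfn-positive cells (filled, with exact 95% Poisson intervals) and keratin-positive reference cells (open, no interval drawn) at E9.5 and E12.0, 1 library each. Grhl3, Pkp1, Anxa1 and Krt6a sit near the left edge in both E9.5 groups and are separated at E12.0, where Krt6a was at 25.8 CPM against 2.30 CPM.

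Promoter windows of 250 bases before the start were available from RefSeq for 16 of the 25 leading higher genes against the Epcam-positive reference and for 10 of the 15 leading lower genes against the keratin-positive reference, so the groups come from different comparisons. AACNGGTT occurred in 1 of the 16 (6.25%; Mt2, as the full palindrome AACCGGTT, which 0.116% of all windows held), in 0 of the 10 and in 1.79% of all windows. The AP-1 motif TGANTCA occurred in 2 of the 16 (12.5%; Mt2 and Ifitm3), in 1 of the 10 (Prdm1) and in 6.75% of all windows. The AP-2 motif GCCNNNGGC occurred in 6 of the 16 (37.5%; Wnt4, Fermt1, Bcam, Krt7, Car4 and Wnt6), in 6 of the 10 (60%) and in 13.7% of all windows. These shares rest on few windows and were not tested.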

How the data were processed

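Per the study's methods and the file headers, the authors made 10x 3' v3 libraries, aligned reads to GRCm38 and deposited raw UMI counts per gene and cell barcode (31053 genes at E9.5, 27998 at E12.0). The submitters' processing notes name Cell Ranger 2.0.0, while the matrix headers carry 3.1.0 (E12.0) and 6.1.2 (E9.5). The E9.5 library held 14293 barcodes and 208540526 UMIs. Of these barcodes 1129 had over 5500 genes, 418 over 10% mitochondrial UMIs and 11 under 200 genes, and 12744 were kept. Over all deposited barcodes the 2 libraries shared 51, none of them that of a Sfn-positive cell.

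UMIs were summed over the cells of a group and scaled to CPM. Genes detected in at least 15% of either group were compared, leaving out Epcam and the genes of the rule, and called by size from ratios with 5 CPM added. The named genes are the 25 with the highest and 15 with the lowest log2 fold whose exact interval of the ratio cleared 1.3, without ribosomal, mitochondrial and unnamed genes, and every gene of 31 lists. The same rule was applied to the keratin-positive reference, and where a gene beyond these is named it was chosen after its values were seen. A few of these genes are not reported here. Members, lists and thresholds were chosen with earlier results of these data known. Doublets were called with Scrublet in scanpy 1.11.5 but left in, and clusters were made with the Leiden method. On simulated data for the keratin-positive comparison (7621 genes), 50 of 50 genes with a fold of 2, 47 of 50 with a fold of 1.5, 41 of 50 with 0.67, 48 of 50 with 0.5 and 21 of 7421 unchanged genes were called. The simulated counts were Poisson draws from a single shared profile, with no variation between cells beyond depth. These rates check the calling steps and do not give error rates for the real, mixed cells. Python 3.11.15, numpy 2.4.6, scipy 1.17.1 and pandas 2.3.3 were used. Gene positions are from GENCODE vM21 and promoter windows from RefSeq (GRCm38.p6). The intervals treat UMIs as independent molecules, and they leave out variation between cells, embryos and litters.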

Additional observations from a re-analysis of the deposited data

Results flagged for a closer look

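In 7 genes the log2 fold of the Sfn-positive cells over their reference pointed in opposite directions at E9.5 and E12.0. The difference between stages was not tested, since each stage has 1 library. Against the Epcam-positive references, Wnt6 was 1.09 at E9.5 and -0.54 at E12.0, Wnt3 1.04 at E9.5 and -1.16 at E12.0, Lmo1 1.05 at E9.5 and -1.38 at E12.0 and Plxna2, a semaphorin receptor, 0.88 at E9.5 and -0.80 at E12.0. Cdh11, a mesenchymal cadherin, was -1.72 at E9.5 and 0.57 at E12.0, and the LIM protein Csrp1 -0.53 at E9.5 and 0.54 at E12.0. Against the keratin-positive references Sox2 was -0.45 at E9.5 and 0.42 at E12.0. With the other kind of reference at E12.0 the value was 0.16 for Wnt6, 0.55 for Wnt3, 0.24 for Lmo1, -0.21 for Plxna2, -0.20 for Cdh11, 0.71 for Csrp1 and 1.08 for Sox2. For Wnt6, Wnt3, Lmo1 and Cdh11 the E12.0 direction thus depended on the reference. At E9.5 the value of Csrp1 was -0.03 against the keratin-positive and 0.0685 against the stricter reference, and that of Sox2 was 0.07 against the Epcam-positive one, so their E9.5 directions depended on it too. The share of reference cells with fewer than 3 Krt8 plus Krt18 UMIs was 29.9% at E9.5 and 92.3% at E12.0, and its part in the opposite directions was not tested.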

How the results depend on the processing

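Weighting cells equally, reweighting the reference to the same depths, leaving out doublets, a limit of 5% mitochondrial UMIs and no upper gene limit left all 4 counts of called genes within 1.5 times. Against the Epcam-positive reference (568 higher, 232 lower) the counts were 325 and 152 after thinning to 5000 UMIs, 1027 and 495 with at least 3 Sfn UMIs, 166 and 85 with the keratin-positive reference, 35 and 42 at a fold of 2, and 148 and 97 against reference cells with at least 3 Epcam and 10 Krt8 plus Krt18 UMIs (chosen after the data were seen). The lower count alone moved to 152 with at least 1 Sfn UMI, 135 at 25% detection and 518 with no detection limit. Against the keratin-positive reference (166 and 85) they were 52 and 28 with at least 1 Sfn UMI, 585 and 311 with at least 3, 257 and 131 with 1 CPM added, 5 and 3 at a fold of 2, 272 and 238 with no detection limit, and 42 lower at 25% detection. All alternatives to the keratin-positive comparison were added after the data were seen. Of the 144 genes called higher after thinning, 78 were among these 166, and of the 90 called lower 23 were among these 85, with 4749 genes detected. Of the 585 called with at least 3 Sfn UMIs 139 were. The cause of the changes with the Sfn threshold was not tested.

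Under the alternatives to the keratin-positive comparison none of 63 named genes changed direction, but the log2 fold of 30 moved by more than its counting error with at least 1 Sfn UMI, of 27 with at least 3, of 12 after thinning, of 9 with no upper gene limit and of 8 with cells weighted equally. Replacing the Epcam-positive by the keratin-positive reference changed the sign of the log2 fold, which became Esrp1 -0.0349, Rab25 -0.11, Spint1 -0.00718, Isl1 -0.0683, Nkx2-3 -0.0766, Dlx2 0.15 and Dlx5 0.0493. With the stricter reference the log2 fold of opposite sign was Hbb-bh1 0.0321, Twist1 0.038, Prrx1 0.00588, Fli1 0.0537, Ets1 0.0225, Grhl2 -0.0361, Kdf1 -0.076, Pkp2 -0.0298, Cldn3 -0.00196, Cldn7 -0.067, Esrp1 -0.0776, Podxl -0.0266, Crb3 -0.0698, Rab25 -0.25, St14 -0.0583, Prss8 -0.0097, Spint1 -0.0741, Csrp1 0.0685, Pitx1 -0.0155, Tfap2b 0.19, Isl1 -0.15, Nkx2-3 -0.25, Gata3 -0.0694, Dlx2 0.53, Prrx2 0.0199 and Dlx5 0.19. No leave-one-out or paired analysis was possible because each stage has 1 library. Depth limits the low genes: no UMI in the Sfn-positive cells allows up to 0.837 CPM by the exact interval.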
